A study of Mus musculus with 30 samples.

Results

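The comparison concerned microglia that refilled the brain after a period of depletion and microglia that had stayed in place, in offspring whose dams had received saline. It took in 6 of the 30 libraries of the series, 3 of Saline + MG-REP and 3 of Saline + CTRL, and all 14225 transcripts of the deposited table. Both groups were C57BL/6J mice at P60, and their dams were the saline arm of a maternal immune activation (MIA) model in which other dams were given poly(I:C), a mimic of viral double-stranded RNA. Saline + CTRL offspring were kept on control chow. Saline + MG-REP offspring were fed PLX5622, which blocks the receptor CSF1R and thereby depletes microglia, from weaning for some weeks, and then control chow until P60, so that microglia repopulated the brain. Each library held RNA of CD11B bead-isolated cells from the whole brain of 1 animal. The matching MIA + MG-REP and MIA + CTRL groups, with 3 libraries each, served to ask where the change in Saline offspring differed from that in MIA offspring. All 30 libraries were in the model that gave the calls, which took its spread from all of them.

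Microglia are the resident macrophages of the brain, seeded before birth from yolk sac progenitors and kept up afterwards by division within the tissue. Their survival depends on signals through CSF1R, so that a blocker of this receptor removes most of them, and after its withdrawal the surviving cells divide until the brain is filled again. In the undisturbed adult brain they carry a set of surface genes such as *P2ry12*, *Tmem119* and *Cx3cr1*, held in place by transforming growth factor beta and by factors such as *Sall1*. CD11B, the protein used for the isolation, is also carried by neutrophils, monocytes and the macrophages of the brain's borders. PLX5622 acts on other CSF1R-dependent macrophages too, and bulk RNA cannot tell fewer cells of a type from less RNA per cell.

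Values are TPM, a level corrected for transcript length and for the size of the library. The smallest steps between low values put the depth of the 6 libraries at 9.21e+06 to 1.12e+07 counted reads, so that a single read on 1 kb of transcript stood for 0.237 to 0.292 TPM. Levels under about 1 TPM therefore rest on few reads. Of the 6 libraries, Saline + MG-REP library 1 stood apart, with a Pearson correlation of 0.904 to 0.931 with the Saline + CTRL libraries over log2(TPM + 1), against 0.949 to 0.960 for MG-REP libraries 2 and 3. The groups also differed in sex: Saline + CTRL libraries 2 and 3 held 268 and 318 TPM of Y-linked genes and at most 0.29 TPM of *Xist*, the RNA of the inactive X chromosome, while Saline + CTRL library 1 and the 3 MG-REP libraries held 124 to 169 TPM of *Xist*. Sex and diet can be told apart only through Saline + CTRL library 1. Values against that library alone (the single female control) are given for some lists and genes, and not for all that they change.

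Microglial markers dominated all 6 libraries. Markers of microglia, among them *C1qa*, *Csf1r*, *Cx3cr1* and *Fcrls*, made up 98.1%, 95.8% and 99.1% of the TPM of 5 cell types' markers in the Saline + CTRL libraries and 98.9%, 97.8% and 97.2% in the MG-REP libraries. The shares overlapped, with 97.7% ± 1.69 against 97.96% ± 0.85 (SD, n = 3; two-sided exact permutation test, p = 0.9, where 3 against 3 allow no p below 0.1). The levels behind these shares differed: the same markers summed to 34807, 29515 and 42938 TPM in Saline + CTRL and 22567, 25904 and 25437 TPM in MG-REP without overlap, and 4 of 5 were lower, against 2 with the single female control, with *Xist* as a covariate, with median-ratio scaling or in a fit of the 2 groups only. The summed level of 13 neutrophil markers, which include the antimicrobial proteins of *S100a8*, *Ngp* and *Camp*, was 851, 973 and 845 TPM in Saline + CTRL and 65.8, 5908 and 356 TPM in MG-REP. MG-REP library 2 was thus the highest of the 6 and MG-REP library 1 the lowest, and *S100a8* alone had 15.2, 2754 and 177 TPM in the MG-REP libraries. None of the 13 was called between the groups by limma (0 had an unadjusted p under 0.05), but with MG-REP library 2 left out 8 of them were lower. Endothelial and mural cell markers, 16 transcripts, summed to 3135, 2742 and 1973 TPM in Saline + CTRL and 782, 1532 and 1212 TPM in MG-REP, without overlap (exact permutation test, p = 0.1), and 5 of them were lower, among them *Cldn5*, a tight junction protein, and *Acta2*, the actin of mural cells. Their part in the results below was not tested, and 1 of the 16 was lower with MG-REP library 1 left out, 1 against the single female control, 1 without Saline + CTRL library 2, 2 without Saline + CTRL library 1 and 2 without MG-REP library 3. The lists for oligodendrocytes, astrocytes, neurons, the choroid plexus and red cells had no transcript called by limma, with 2 at an unadjusted p under 0.05 for oligodendrocytes and none for the others.

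**Figure D1:**
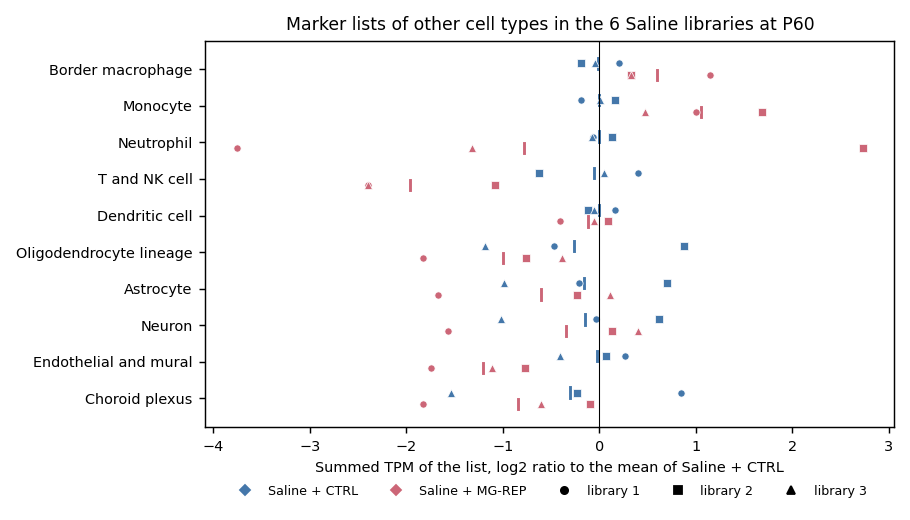
Summed TPM of the marker lists of 10 other cell types in the 6 Saline libraries at P60, as the log2 ratio to the mean of the 3 Saline + CTRL libraries; points are libraries and bars are means of the log2 ratios. The neutrophil list runs from 65.8 TPM in MG-REP library 1 to 5908 TPM in MG-REP library 2, and the endothelial and mural list lies lower in the 3 MG-REP libraries than in the 3 Saline + CTRL libraries.

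Repopulated and resident microglia of Saline offspring differed widely. Compared by limma on log2(TPM + 1), 3805 of 14225 transcripts (26.7%) were called at an adjusted p under 0.05. Of these, 1687 (11.9% of all transcripts) were higher in Saline + MG-REP and 2118 (14.9%) were lower. The count of all calls was 2012 against the single female control, 1911 in a fit of the 2 groups only and 2460 without MG-REP library 1. The libraries of the groups did not overlap for 5461 transcripts (38.4%), of which 3616 (25.4%) were also called. A call with a rise of over 1 on the log2 scale was made for 662 transcripts (4.65%) and one with a fall of over 1 for 645 (4.53%), and 323 (2.27%) moved by over 2. The median log2 fold change of all transcripts was −0.14, so that a list's median is read against that value. The split of higher and lower calls depended on the scaling: 44.3% of calls were higher with the TPM as deposited, against 57.5% after median-ratio scaling and 51.1% after quantile normalization, and these moved the median of all transcripts by 0.096 and 0.097.

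The deposited table assigns each transcript to a module that the study formed by clustering these same libraries, so the modules are no independent evidence. Of the immature module, 1041 of 4681 transcripts were higher and 135 lower in Saline + MG-REP. The immature module of MIA offspring went the other way, with 2 of 2816 higher and 620 lower. Of the adult module, 13 of 3276 were higher and 606 lower, and of the juvenile module 8 of 2318 were higher and 757 lower. The module named for repopulated microglia had 623 of 1134 transcripts higher and none lower.

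**Figure D2:**
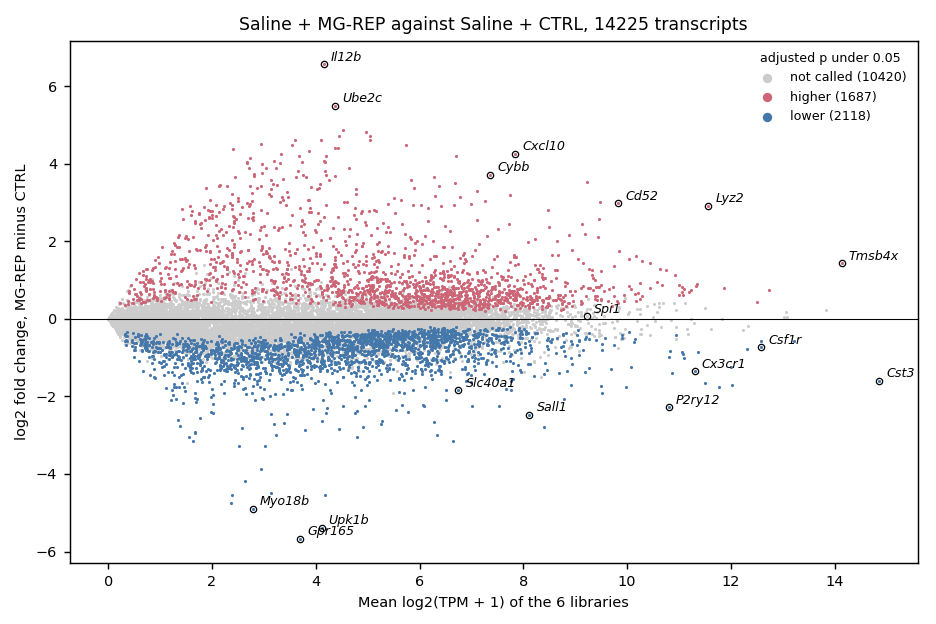
Log2 fold change between Saline + MG-REP and Saline + CTRL (y axis) against the mean log2(TPM + 1) of the 6 libraries (x axis) for 14225 transcripts; each point is a transcript, in red where it was higher (1687) and in blue where it was lower (2118) at an adjusted p under 0.05. *Il12b* and *Ube2c* lie at the top at low mean levels, *Gpr165* and *Upk1b* at the bottom, and *Tmsb4x* and *Cst3* at the right among the most abundant transcripts.

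Genes of homeostatic microglia were lower in repopulated cells. Of 18 transcripts of a homeostatic list, 14 were lower, 1 was higher and 3 were not called, with a median log2 fold change of −1.14, where 14.9% of all transcripts were lower. *P2ry12*, the ADP receptor by which microglial processes find injury, had 3779.7, 3422 and 4721 TPM in Saline + CTRL libraries 1 to 3 and 609, 949.8 and 926 TPM in MG-REP libraries 1 to 3, a change of −2.28 in log2 (SE 0.24, adjusted p = 7.22e-08). Every MG-REP library lay below every Saline + CTRL library, and the lowest value was that of MG-REP library 1. *Slc2a5*, a fructose transporter, had 434, 303 and 500.4 TPM in Saline + CTRL and 67.1, 92.6 and 95.2 TPM in MG-REP, a change of −2.25 in log2 (SE 0.34, adjusted p = 2.00e-05). *Gpr34*, a lysophosphatidylserine receptor, had 1813, 1556 and 2305 TPM and 454, 589 and 627 TPM, a change of −1.76 in log2 (SE 0.25, adjusted p = 6.86e-06). For both genes the groups did not overlap. The fractalkine receptor *Cx3cr1*, by which neurons hold microglia in check, had 3957, 3374 and 4948 TPM in Saline + CTRL and a narrow 1539, 1614 and 1580.4 TPM in MG-REP (log2 fold change −1.36, SE 0.19, adjusted p = 5.86e-06). 1 member, *Aif1*, which encodes IBA1, was called higher, at 606, 476 and 693 TPM in Saline + CTRL and 1084, 928 and 902 TPM in MG-REP (log2 fold change 0.73, SE 0.21, adjusted p = 0.0106). That call was lost against the single female control (adjusted p = 0.131), with quantile normalization (0.0564), without Saline + CTRL library 2 (0.0687) and without MG-REP library 1 (0.0592). *Siglech*, *Sparc* and *Itgam* of this list have no value in the table.

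By amount, the largest loss of any transcript was that of *Cst3*, the cysteine protease inhibitor cystatin C. It had 51850.2, 42695 and 62280.1 TPM in Saline + CTRL and 10381, 21221 and 22744 TPM in MG-REP, a change of −1.59 in log2 (SE 0.26, adjusted p = 5.61e-05). Other large losses were those of *Rhob*, a small GTPase, the AP-1 subunits *Jun* and *Fos*, and the immediate early gene *Egr1*. *Rhob* had 7949.8, 6343 and 8312 TPM in Saline + CTRL and 1705, 2712 and 2633 TPM in MG-REP, with the lowest value in MG-REP library 1. The largest gain was that of *Tmsb4x*, the actin-binding thymosin beta 4, from 10894, 9550.2 and 12623 TPM to 42582, 24699 and 24643 TPM (log2 fold change 1.43, SE 0.21, adjusted p = 1.07e-05). MG-REP library 1 was the highest here, and no library of one group reached the range of the other. *Lyz2*, the lysozyme of macrophages, had 1159, 961 and 1206 TPM in Saline + CTRL and 9673, 7945 and 7456 TPM in MG-REP, a change of 2.91 in log2 (SE 0.24, adjusted p = 2.52e-09). *Cd52*, a small surface glycoprotein of leukocytes, had 289, 281 and 422 TPM and 2841, 2414 and 2447 TPM, a change of 2.98 in log2 (SE 0.18, adjusted p = 1.82e-11). *B2m*, the light chain of MHC class I, *Tyrobp*, the adaptor of TREM2, and the chemokine *Cxcl2* were the other large gains. In the fit of the 2 groups only, *Cst3*, *Tmsb4x*, *B2m*, *Tyrobp* and *Fos* were not called (adjusted p = 0.171, 0.112, 0.187, 0.0691 and 0.0576). Against the single female control the calls of *Fos*, *B2m* and *Tyrobp* were lost too (log2 fold changes −0.98, 0.69 and 0.82).

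Transcription factors of a microglial lineage list split. Of 24 transcripts of the lineage list, 10 were lower, 1 was higher and 13 were not called (median −0.20). Among the lower ones, *Egr1*, *Klf2* and *Klf4* stand in the list of immediate early and heat shock genes too. *Sall1*, a zinc finger repressor that sets microglia apart from other macrophages, had 699.8, 567 and 710.0 TPM in Saline + CTRL and 53.6, 169 and 175 TPM in MG-REP, a change of −2.48 in log2 (SE 0.29, adjusted p = 5.96e-07). MG-REP library 1 had a lower level than the other MG-REP libraries, and all 3 lay below the controls. *Klf2*, a factor that restrains inflammation, had 1420.2, 1020.4 and 1594 TPM in Saline + CTRL and 253, 545 and 456 TPM in MG-REP, a change of −1.73 in log2 (SE 0.31, adjusted p = 0.000146). *Spi1*, which encodes the myeloid master factor PU.1, had 593, 506 and 669 TPM and 722, 602 and 532 TPM, which overlapped (log2 fold change 0.07, SE 0.19, adjusted p = 0.836). *Irf8* (NM_008320), which microglia need to develop, had 18.2, 13.2 and 13.6 TPM and 16.1, 17.1 and 15.5 TPM and was not called either (log2 fold change 0.12, SE 0.23, adjusted p = 0.753). The values of *Spi1* and *Irf8* lay on both sides of 0 under other settings. *Bhlhe40*, a repressor of circadian and immune genes, was the member called higher, at 75.5, 68.5 and 40.2 TPM in Saline + CTRL and 169.8, 146 and 114 TPM in MG-REP (log2 fold change 1.24, SE 0.36, adjusted p = 0.0112). That call was lost with *Xist* as a covariate (adjusted p = 0.195), against the single female control (0.259), without Saline + CTRL library 3 (0.072) and without MG-REP library 1 (0.0608). Outside the list, *Runx3*, a factor of myeloid and T cell lineages, was among the 12 largest rises, with 3.59, 2.9 and 3.25 TPM in Saline + CTRL and 179, 96.3 and 77.9 TPM in MG-REP, a change of 4.72 in log2 (SE 0.29, adjusted p = 2.36e-11). The lowest MG-REP value of *Runx3* was far above the highest control value.

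Of the TGF-beta pathway, 5 of 22 transcripts were lower and none was higher (median −0.44), that is 22.7% lower against 14.9% of all transcripts. The 5 were the receptor *Tgfbr1* (NM_001312869), the co-receptor *Eng*, the signal transducers *Smad3* and *Smad1*, and the inhibitory *Smad7*, a target of the pathway itself. The calls of *Tgfbr1* and *Eng* were lost without MG-REP library 1 (adjusted p = 0.247 and 0.0677) and without Saline + CTRL library 1 (0.118 and 0.148). That of *Tgfbr1* was also lost without Saline + CTRL library 3 (0.184) or MG-REP library 3 (0.0578), and that of *Eng* without MG-REP library 2 (0.0646). The *Tgfbr1* call failed as well with another pseudocount (0.2), median-ratio scaling (0.102), quantile normalization (0.252), *Xist* as a covariate (0.165) and in the fit of the 2 groups only (0.19). It was lost too against the single female control (log2 fold change −0.58). *Smad3* had 118, 128 and 162 TPM in Saline + CTRL and 69.2, 73.8 and 70.3 TPM in MG-REP, a change of −0.92 in log2 (SE 0.13, adjusted p = 8.13e-06). The ligand *Tgfb1* changed by −0.17 and was not called. *Csf1r*, the receptor that PLX5622 blocks, had 7801, 6797 and 9492 TPM in Saline + CTRL and 4498, 4948 and 4904 TPM in MG-REP, a change of −0.73 in log2 (SE 0.19, adjusted p = 0.00551). Its call was lost with median-ratio scaling (adjusted p = 0.134), with *Xist* as a covariate (0.103), against the single female control (0.0833) and in the fit of the 2 groups only (0.133). *Csf2ra*, the receptor chain for GM-CSF, moved the other way, from 250.1, 175 and 219 TPM to 791, 646 and 567 TPM (log2 fold change 1.64, SE 0.19, adjusted p = 4.24e-07). The other 7 transcripts of this axis were not called, among them the ligand *Csf1* (log2 fold change −0.40). A list of nucleotide receptors and enzymes, by which microglia read ATP from their surroundings, had 6 of 16 transcripts lower and 1 higher. Its summed level was 7332, 6646 and 9170.0 TPM in Saline + CTRL and 1972, 2372 and 2324 TPM in MG-REP. *P2ry12*, *P2ry13* and *Gpr34*, the last a lysophosphatidylserine receptor, stand in the homeostatic list too. *P2ry12* alone gave 3779.7, 3422 and 4721 TPM of the sum in Saline + CTRL. *P2ry13*, an ADP receptor, and *Adora3*, an adenosine receptor, fell by 1.92 and 1.48 on the log2 scale, while *Nt5e*, the enzyme CD73 that makes adenosine, had 3.57, 3.23 and 1.09 TPM in Saline + CTRL and 62.6, 21.5 and 18.6 TPM in MG-REP (log2 fold change 3.15, SE 0.39, adjusted p = 1.36e-06). The highest *Nt5e* value was that of MG-REP library 1.

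**Figure D3:**
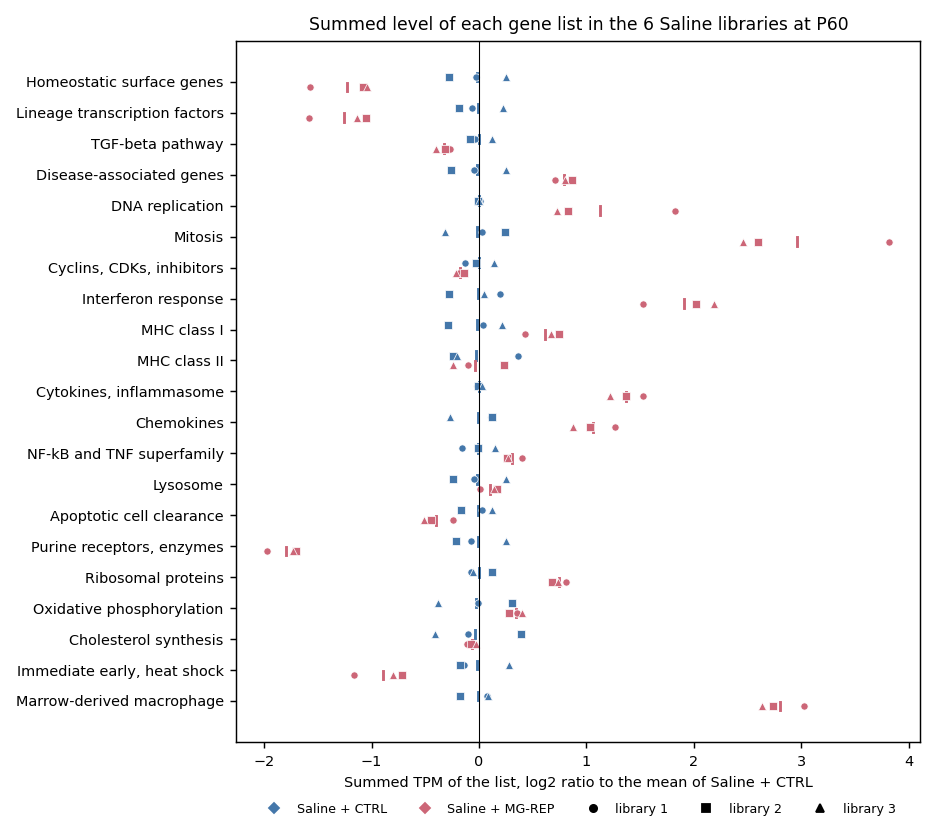
Summed TPM of 21 gene lists in the 6 Saline libraries at P60, as the log2 ratio to the mean of the 3 Saline + CTRL libraries; points are libraries and bars are means of the log2 ratios. The mitosis list sums to 297, 344 and 234 TPM in Saline + CTRL and 4118, 1762 and 1601 TPM in MG-REP, and the homeostatic list to 94638, 79462 and 114903 TPM and 32402, 45659 and 46639.8 TPM.

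Genes of cell division were higher in repopulated microglia. Of 52 transcripts of mitosis, 49 were higher and none was lower, with a median log2 fold change of 3.06, where 11.9% of all transcripts were higher. Of 43 transcripts of DNA replication, 33 were higher and none was lower (median 1.29). MG-REP library 1 was the highest in both lists, with a mitotic sum of 4118 TPM against 1762 and 1601 TPM in the other 2 and at most 344 TPM in Saline + CTRL. Without that library, 45 mitotic and 28 replication transcripts were higher, with medians of 2.58 and 0.91. In the fit of the 2 groups only, 45 mitotic and 19 replication transcripts were higher. Against the single female control, 45 and 29 were higher.

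*Ube2c*, which loads ubiquitin onto cyclins at the end of mitosis, had 4.16, 2.66 and 0.52 TPM in Saline + CTRL and 261, 116 and 85.8 TPM in MG-REP, a change of 5.50 in log2 (SE 0.35, adjusted p = 3.13e-11). *Mki67*, the Ki-67 protein of dividing nuclei, had 3.84, 3.19 and 2.77 TPM in Saline + CTRL and 234, 93.9 and 82.9 TPM in MG-REP. For both genes MG-REP library 1 was higher than the other MG-REP libraries, and the groups did not overlap. *Top2a*, the topoisomerase that untangles chromosomes, had 5.7, 7.17 and 4.38 TPM and 319.7, 119.7 and 110.2 TPM, a change of 4.61 in log2 (SE 0.28, adjusted p = 2.16e-11). *Ccnb2*, a cyclin of mitotic entry, had 4.06, 4.11 and 3 TPM and 178, 76.5 and 69.1 TPM (log2 fold change 4.40, SE 0.25, adjusted p = 6.26e-12), and *Cdca8*, a subunit of the chromosomal passenger complex, 3.84, 2.88 and 1.2 TPM and 159, 63.1 and 59.6 TPM (log2 fold change 4.63, SE 0.29, adjusted p = 2.36e-11). MG-REP library 1 was the highest for these 3 genes too, again without overlap. Developing microglia of Saline offspring, given for scale, had *Ube2c* at 214 ± 6.37 TPM at E17 and 178 ± 23.6 TPM at P7 (mean ± SD, n = 3), so that MG-REP library 1 lay above and libraries 2 and 3 below both means. Among replication genes, *Rrm2*, the ribonucleotide reductase subunit that supplies deoxynucleotides, had 3.14, 5.8 and 2.12 TPM in Saline + CTRL and 141, 58.2 and 46.2 TPM in MG-REP, a change of 4.05 in log2 (SE 0.32, adjusted p = 1.05e-09). *Mcm2*, of the replicative helicase, was present in resident cells at 13.8, 14.4 and 16.6 TPM and had 136, 51.2 and 48.7 TPM in MG-REP (log2 fold change 2.16, SE 0.22, adjusted p = 7.25e-08). *Cdkn3* and *2810417H13Rik*, the latter a PCNA-binding replication factor, were also among the 12 largest rises, with log2 fold changes of 4.51 ± 0.38 and 4.61 ± 0.34 (SE).

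Regulators of the cycle were mixed: 19 of 36 transcripts were higher and 2 lower (0 lower against the single female control and 0 without MG-REP library 1; median 0.70). The drivers *E2f8*, *Foxm1* and *Ccne1* rose, and *Foxm1*, the activator of mitotic genes, had 5.11, 4.73 and 4.01 TPM in Saline + CTRL and 69.6, 29.4 and 24.2 TPM in MG-REP (log2 fold change 2.76, SE 0.24, adjusted p = 4.25e-09). Inhibitors rose beside them. *Cdkn2c* (NM_001301368) had 3.8, 4.86 and 3.46 TPM and 76.9, 28.99 and 30.2 TPM (log2 fold change 3.06, SE 0.25, adjusted p = 2.31e-09), the highest in MG-REP library 1. *Cdkn2a* has 2 transcripts in the table, from which the p16 and p19ARF proteins are made, and both were near 0 in resident cells. NM_009877 had 0, 0 and 0.52 TPM in Saline + CTRL and 11.1, 10.3 and 11.2 TPM in MG-REP (log2 fold change 3.36, SE 0.38, adjusted p = 2.50e-07), and NM_001040654 was listed at 0 in the 3 Saline + CTRL libraries and had 7.59, 4.48 and 6.76 TPM in MG-REP. Unlike the mitotic genes, NM_009877 had nearly the same level in the 3 MG-REP libraries. Among the *Cdkn1a* transcripts, NM_007669 changed by 2.08 and NM_001111099 by 1.10, and both were called.

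Mitotic genes are known to be switched on together through the cell cycle homology region (CHR, TTTGAA) and CCAAT boxes in their promoters. Both were searched on both strands in the 250 bases before the start sites that RefSeq gives for GRCm38.p6, a table that holds windows for 10524 of the 13481 genes measured. Of the windows of mitotic genes that were called higher, 17 of 41 (41.5%) held a CHR, against 10.9% of the windows of all measured genes. A CCAAT box was in 27 of 41 (65.9%), against 34.5%. In the whole mitosis list, called or not, a CHR was in 19 of 44 windows (43.2%) and a CCAAT box in 29 of 44 (65.9%). The replication genes that were higher had the 8-letter E2F site in its form TTTCGCGC in 3 of 27 windows (11.1%, against 0.425% of all) and in its form TTTGGCGC in 2 (7.41%, against 0.688%). In the whole replication list these forms were in 3 and 2 of 34 windows (8.82% and 5.88%). These are matches of letters and not measured binding. The 150 bases before the start are shown for 3 mitotic genes with large rises whose stretch held both motifs. They are *Ube2c* at chr2:164769779-164769928 (plus strand), *Mki67* at chr7:135716380-135716529 (minus strand) and *Top2a* at chr11:99024190-99024339 (minus strand). Each is written 5′ to 3′ along the gene, with CHR (TTTGAA or TTCAAA) and CCAAT box (CCAAT or ATTGG) in capitals.
Ube2c: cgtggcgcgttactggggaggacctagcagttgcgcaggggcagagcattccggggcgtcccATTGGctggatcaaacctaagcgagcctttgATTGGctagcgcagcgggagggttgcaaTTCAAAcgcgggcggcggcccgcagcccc
Mki67: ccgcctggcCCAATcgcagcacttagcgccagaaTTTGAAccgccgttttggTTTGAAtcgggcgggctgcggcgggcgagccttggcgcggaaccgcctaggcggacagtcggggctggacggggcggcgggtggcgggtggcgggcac
Top2a: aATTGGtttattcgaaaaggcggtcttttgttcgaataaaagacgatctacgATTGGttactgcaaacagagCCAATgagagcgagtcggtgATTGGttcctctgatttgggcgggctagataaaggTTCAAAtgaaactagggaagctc

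*Top2a* held 4 CCAAT boxes in this stretch, *Ube2c* held 2 and *Mki67* held 1, beside 1, 1 and 2 of the CHR.

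Interferon-stimulated genes were also higher in repopulated microglia. Of 50 transcripts, 36 were higher and 1 was lower, with a median log2 fold change of 1.39. The summed level was 2404, 1738 and 2169.6 TPM in Saline + CTRL and 6064, 8553 and 9568 TPM in MG-REP. Here MG-REP library 1, the highest for the cell cycle, was the lowest of the MG-REP libraries, and all 3 were above the controls. Against the single female control, 22 were higher (median 1.07). *Ifi27l2a*, an interferon-induced membrane protein, had 26.9, 17.2 and 27.2 TPM in Saline + CTRL and 402, 438 and 489.5 TPM in MG-REP, a change of 4.19 in log2 (SE 0.21, adjusted p = 8.81e-13). *Oas3*, which makes the second messenger of RNase L when it binds double-stranded RNA, had 1.7, 1.34 and 3.09 TPM and 12.8, 32.1 and 39.2 TPM (log2 fold change 3.16, SE 0.34, adjusted p = 1.22e-07). The groups did not overlap for either gene. The DNA sensor *Ifi204* had 20.5, 11.03 and 15.9 TPM and 136, 209 and 264 TPM (log2 fold change 3.59, SE 0.24, adjusted p = 9.17e-11), the lowest of the MG-REP values again in library 1. *Zbp1*, a sensor of Z-form nucleic acid, and *Ms4a4c* rose by 2.86 ± 0.35 and 3.68 ± 0.34 (log2, SE). *Ifi204*, *Ms4a4c* and the *Oas* genes belong to families of similar sequence, among which reads may have been shared. The ligand *Ifnb1*, interferon beta, was listed at 0, 0.36 and 0 TPM in Saline + CTRL and had 3.72, 7.07 and 6.75 TPM in MG-REP (log2 fold change 2.59, SE 0.41, adjusted p = 3.21e-05). *Tlr3*, the receptor of double-stranded RNA in endosomes, was the member called lower, with 88.9, 91.1 and 99.7 TPM in Saline + CTRL and 43.8, 74.7 and 73.3 TPM in MG-REP (log2 fold change −0.58, SE 0.17, adjusted p = 0.0134). Its call was lost in 6 settings, among them the single female control (adjusted p = 0.191), *Xist* as a covariate (0.0651), Saline + CTRL library 3 left out (0.0507) and MG-REP library 1 left out (log2 fold change −0.33, adjusted p = 0.167). *Irf7* of this list has no value in the table.

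Interferon-stimulated genes are known to carry the interferon-stimulated response element (ISRE) in their promoters, searched here as GAAANNGAA on both strands of the same 250-base windows. It was found in 13 of 26 windows (50%) of the interferon genes that were higher, against 6.18% of the windows of all measured genes. In the whole interferon list, called or not, it was in 19 of 45 windows (42.2%). The 150 bases before the start are shown for 3 interferon genes with large rises whose stretch held the motif. They are *Oas3* at chr5:120777660-120777809 (minus strand), *Oas1a* at chr5:120907526-120907675 (minus strand) and *Bst2* at chr8:71537473-71537622 (minus strand). The ISRE is in capitals, with overlapping matches run together.
Oas3: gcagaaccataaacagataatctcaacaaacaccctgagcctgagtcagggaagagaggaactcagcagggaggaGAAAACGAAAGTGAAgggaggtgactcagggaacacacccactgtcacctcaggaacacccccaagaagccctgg
Oas1a: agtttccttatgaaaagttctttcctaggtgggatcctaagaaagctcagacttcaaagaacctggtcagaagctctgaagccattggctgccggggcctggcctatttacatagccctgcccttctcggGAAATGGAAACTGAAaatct
Bst2: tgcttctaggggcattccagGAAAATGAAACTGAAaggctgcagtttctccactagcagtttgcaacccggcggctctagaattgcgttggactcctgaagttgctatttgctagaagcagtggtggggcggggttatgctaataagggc

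In each of the 3 stretches, 2 ISRE matches overlapped. *Oas1a*, a further member of the RNase L pathway, changed by 2.69 ± 0.29 and *Bst2*, the tetherin that holds budding viruses to the membrane, by 2.18 ± 0.16 (log2, SE), and both were called.

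Antigen presentation through MHC class I rose in part: 10 of 18 transcripts were higher and none was lower (median 0.48). *Nlrc5*, the transactivator of class I genes, had 11.1, 6.06 and 9.55 TPM in Saline + CTRL and 15.4, 39.04 and 38.97 TPM in MG-REP (log2 fold change 1.62, SE 0.36, adjusted p = 0.00155). The immunoproteasome subunit *Psmb8* had 228, 166 and 228 TPM and 439, 372 and 352 TPM (log2 fold change 0.91, SE 0.19, adjusted p = 0.000976). The heavy chain *H2-D1*, whose reads may be shared with its paralogs, changed by 0.84 ± 0.17 and was called, while *H2-K1* changed by 0.39 ± 0.20 and was not. Against the single female control, 2 of the 18 were higher, at a median of 0.45, and the calls of *Nlrc5* and *Psmb8* were lost (adjusted p = 0.103 and 0.0674). MHC class II had 1 transcript higher and 4 lower of 11, with 2 lower without Saline + CTRL library 1. The subunits split: *H2-DMa*, of the editor that loads peptides, had 186, 149.7 and 203 TPM in Saline + CTRL and 461, 368 and 338 TPM in MG-REP (log2 fold change 1.11, SE 0.18, adjusted p = 4.04e-05), while its inhibitors *H2-Oa* and *H2-Ob* fell by 1.12 and 1.05 on the log2 scale. The class II heterodimer genes *H2-Aa* and *H2-Ab1* changed by −0.26 and −0.11 and were not called.

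Inflammatory ligands rose as well. Of 24 transcripts of cytokines and inflammasome genes, 11 were higher and 2 lower (median 0.49), and of 25 transcripts of chemokines 12 were higher and 3 lower (median 0.81). Against the single female control the higher ones were 7 and 8. *Il12b*, the p40 subunit shared by IL-12 and IL-23, had the largest rise of any transcript, from 1.07, 0.44 and 1.07 TPM in Saline + CTRL to 314, 127 and 128 TPM in MG-REP. Its partner in IL-23, *Il23a*, had 0.88, 0.81 and 0.72 TPM and 25.9, 8.01 and 11.1 TPM, a change of 2.99 in log2 (SE 0.36, adjusted p = 8.79e-07). For both, MG-REP library 1 was the highest and the groups did not overlap. *Tnf* had 13.7, 18.1 and 12.1 TPM in Saline + CTRL and 68.7, 52.4 and 47.8 TPM in MG-REP (log2 fold change 1.88, SE 0.36, adjusted p = 0.000347). The anti-inflammatory *Il10* had 4.56, 2.53 and 3.53 TPM and 23.8, 12.1 and 9.64 TPM (log2 fold change 1.76, SE 0.36, adjusted p = 0.000605), but was not called against the single female control (adjusted p = 0.067). *Il27* and *Il16* were the lower ones, with −1.67 and −1.11.

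The chemokine with the largest rise was *Cxcl10*, an interferon-induced ligand for T cells, with 56.8, 49.5 and 48.1 TPM in Saline + CTRL and 1363, 828 and 886 TPM in MG-REP, a change of 4.26 in log2 (SE 0.32, adjusted p = 3.84e-10). The neutrophil attractants *Cxcl1* and *Cxcl2* had 23.8, 19.1 and 20.2 TPM and 167, 163 and 199 TPM in Saline + CTRL. In MG-REP they had 502, 196 and 209.6 TPM and 3665, 1506 and 1565 TPM, the highest in library 1, which held the least of the neutrophil markers. *Cxcl16*, a membrane-bound ligand and scavenger receptor, rose by 2.46 ± 0.26 and *Ccl2*, which draws monocytes, by 2.16 ± 0.29 (log2, SE). *Ccl5* was uneven, with 36.4, 8.81 and 20.1 TPM in Saline + CTRL and 16.6, 208 and 226 TPM in MG-REP, so that MG-REP library 1 lay within the range of the controls (log2 fold change 2.25, SE 0.70, adjusted p = 0.0189). Its call was lost without Saline + CTRL library 2, MG-REP library 2 or MG-REP library 3 (adjusted p = 0.109, 0.11 and 0.116) and against the single female control (log2 fold change 1.33). *Ccl24*, an eosinophil attractant, fell from 37.2, 25.8 and 17.1 TPM to 2.78, 2.53 and 4.25 TPM (log2 fold change −2.68, SE 0.30, adjusted p = 2.68e-07). *Ccl3* and *Ccl4*, among the best known microglial chemokines, changed by 0.41 and 0.29 and were not called.

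Chemokine receptors moved in both directions, with 5 of 15 transcripts higher and 3 lower (33.3% and 20%, against 11.9% and 14.9% of all transcripts). *Ccr1*, a receptor of CCL3 and CCL5, had 34.8, 23.3 and 17.3 TPM in Saline + CTRL and 396, 224 and 224 TPM in MG-REP (log2 fold change 3.43, SE 0.31, adjusted p = 7.32e-09). *Cxcr4*, the receptor of CXCL12, had 35.6, 43.5 and 58.2 TPM and 298, 382 and 389 TPM (log2 fold change 2.95, SE 0.30, adjusted p = 5.68e-08), again without overlap. *Ccr2*, by which monocytes follow CCL2, had 18.1, 19.6 and 18.7 TPM and 60.6, 64.1 and 49.9 TPM (log2 fold change 1.57, SE 0.28, adjusted p = 0.000166). Each of these 3 receptors was higher in every MG-REP library than in every control. Cytokine receptors had 4 higher and 7 lower of 30 (13.3% and 23.3%, against 11.9% and 14.9% of all transcripts), with 1 and 3 against the single female control and 4 lower without MG-REP library 1 or Saline + CTRL library 3. Among the lower ones, *Il6st*, the signal chain of the IL-6 family, fell from 264, 325 and 339 TPM to 78.3, 123 and 117 TPM (log2 fold change −1.55, SE 0.13, adjusted p = 2.20e-09). Of the NF-kB and TNF superfamily list, 11 of 31 transcripts were higher and 4 lower (median 0.29), and 8 and 1 against the single female control or 7 and 3 without Saline + CTRL library 1. Its largest rises were of ligands: *Tnfsf8*, the CD30 ligand, had 2, 1.23 and 2.94 TPM in Saline + CTRL and 55.99, 48.4 and 57.2 TPM in MG-REP (log2 fold change 4.20, SE 0.23, adjusted p = 3.51e-12), and *Tnfsf9*, the 4-1BB ligand, 64.6, 59.7 and 37.3 TPM and 632, 351 and 377 TPM (log2 fold change 3.04, SE 0.41, adjusted p = 3.71e-06). Neither ligand overlapped between the groups. The kappaB motif was in 7 of 15 windows of the members that were higher, in 13 of 30 windows of the whole list and in 9.45% of the windows of all measured genes. Of 23 transcripts of Toll-like receptors and their adaptors 3 were higher and 4 lower (13% and 17.4%, near the 11.9% and 14.9% of all transcripts), and without MG-REP library 1 1 was lower. Receptors of bacterial products included both directions: *Tlr2*, which binds bacterial lipoproteins, had 223, 227 and 268 TPM and 1489.7, 1245 and 1190.5 TPM (log2 fold change 2.44, SE 0.23, adjusted p = 1.83e-08) and *Tlr5*, which binds flagellin, 32, 31.6 and 47.2 TPM and 5.08, 4.34 and 3.08 TPM (log2 fold change −2.87, SE 0.23, adjusted p = 9.52e-10). Complement genes had 3 of 16 transcripts higher and 2 lower (18.8% and 12.5%, against 11.9% and 14.9% of all transcripts): *C3*, the central component, had 7.64, 8.67 and 6.43 TPM in Saline + CTRL and 12.9, 64.1 and 44.8 TPM in MG-REP (log2 fold change 2.02, SE 0.35, adjusted p = 9.99e-05), and *Cfp*, the stabilizer of the alternative pathway, 33.6, 30.1 and 23.6 TPM and 332, 133 and 113 TPM (log2 fold change 2.53, SE 0.27, adjusted p = 1.24e-07). MG-REP library 1 was the lowest of the MG-REP libraries for *C3* and the highest for *Cfp*. Among the lower ones was *C2*, a protease of the classical pathway, with 11.8, 13.9 and 8.91 TPM and 0.99, 2.99 and 3.21 TPM (log2 fold change −1.94, SE 0.25, adjusted p = 2.55e-06). The lower count was 4 without Saline + CTRL library 3 and 4 without MG-REP library 2.

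**Figure D4:**
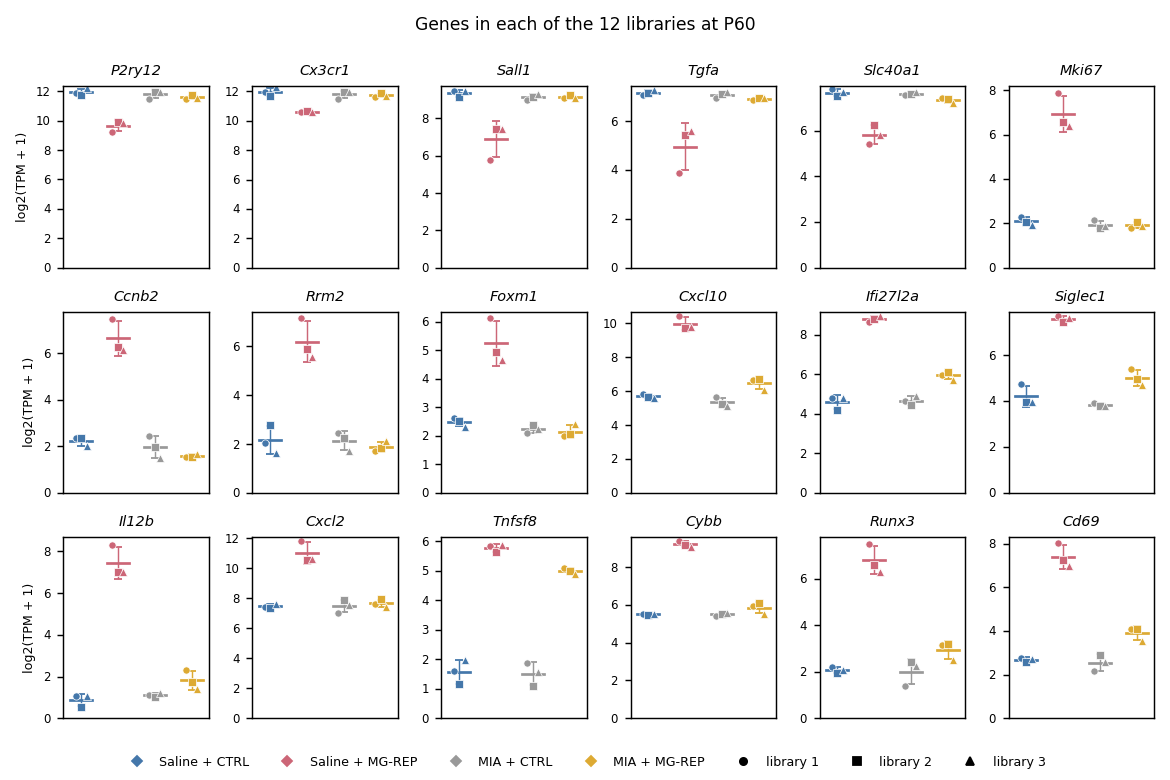
Level of 18 genes as log2(TPM + 1) in each of the 12 libraries at P60, by group; points are libraries, horizontal bars are means and error bars are the SD (n = 3). *Mki67*, *Ccnb2*, *Rrm2* and *Il12b* are high in Saline + MG-REP and low in the other 3 groups, while *Tnfsf8* is high in both MG-REP groups.

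Genes of disease-associated microglia, a state described around plaques and dying neurons, were mostly higher: 20 of 28 transcripts rose and 2 fell (median 0.89), with 13 higher in the fit of the 2 groups only. *Cst7*, an inhibitor of lysosomal proteases, had 24.8, 17.9 and 9.36 TPM in Saline + CTRL and 85.3, 186 and 184 TPM in MG-REP (log2 fold change 3.07, SE 0.31, adjusted p = 5.22e-08). *Ch25h*, which makes 25-hydroxycholesterol, had 15.6, 19.3 and 38.3 TPM and 299.9, 163 and 119 TPM (log2 fold change 2.93, SE 0.42, adjusted p = 8.87e-06). MG-REP library 1 was the lowest of its group for *Cst7* and the highest for *Ch25h*, and neither gene overlapped with the controls. *Apoe* is represented by 3 transcripts, each at most 10.1 TPM in these libraries, and how reads shared among the transcripts of 1 gene were counted is not given in the sources used here. All 3 were higher, with log2 fold changes of 2.27, 1.55 and 1.51 and adjusted p-values from 8.47e-06 to 0.000444. The receptor *Trem2* (NM_001272078) had 10.1, 6.24 and 9.54 TPM in Saline + CTRL and 7.09, 6.89 and 7.88 TPM in MG-REP and was not called (log2 fold change −0.19, SE 0.27, adjusted p = 0.659). These are values of 1 low transcript under the same limit on shared reads, and may not stand for the whole gene. The members that fell were *Ccl6* (log2 fold change −1.01) and *Ctsl* (log2 fold change −0.95), and *Axl*, *Clec7a*, *Lgals3* and *Igf1* have no value in the table. The *Ctsl* call was lost with *Xist* as a covariate (adjusted p = 0.0546) and in the fit of the 2 groups only (0.0699). Against the single female control *Ctsl* changed by −0.91.

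*Cybb*, the catalytic subunit of the phagocyte NADPH oxidase, had 44.7, 43.4 and 44.6 TPM in Saline + CTRL and 676, 585 and 537 TPM in MG-REP, a change of 3.72 in log2 (SE 0.24, adjusted p = 3.61e-11). The control values lay close together, far below the lowest MG-REP value. Of the list of redox and iron genes, 9 of 27 transcripts were higher and 2 lower (5 higher against the single female control). *Slc40a1*, ferroportin, the exporter of iron, had 225, 181 and 203 TPM and 41.9, 74.3 and 55.4 TPM (log2 fold change −1.84, SE 0.17, adjusted p = 1.20e-08), so that it fell. Lysosomal genes had 18 of 46 transcripts higher and 5 lower (median 0.30), and 10 higher against the single female control. *Ctse*, an aspartic protease, had 3.09, 1.95 and 2.18 TPM in Saline + CTRL and 37.9, 49.8 and 53.2 TPM in MG-REP (log2 fold change 3.82, SE 0.35, adjusted p = 1.38e-08). *Ctsc*, which activates granule proteases, was higher in both of its transcripts (2.06 for NM_001311790 and 1.65 for NM_009982), and the glucuronidase *Gusb* by 1.54 ± 0.19 (SE). Lipid handling had 7 of 15 higher and 2 lower, with *Plin2*, which coats lipid droplets, at 63.4, 60.4 and 67.3 TPM and 245, 178 and 185 TPM (log2 fold change 1.64, SE 0.21, adjusted p = 1.58e-06). None of 22 transcripts of cholesterol synthesis was called by limma, with 1 at an unadjusted p under 0.05 (median −0.07). Among receptors with immune brakes and Fc or lectin ligands, 9 of 28 were higher and 8 lower (4 lower against the single female control). *Cd69*, an early activation antigen of leukocytes, had 5.88, 4.92 and 5.55 TPM in Saline + CTRL and 258, 149.6 and 123 TPM in MG-REP (log2 fold change 4.72, SE 0.28, adjusted p = 1.82e-11). *Pdcd1*, the checkpoint receptor PD-1, had 4.16, 5.27 and 4.15 TPM and 47.8, 42.03 and 30.1 TPM (log2 fold change 2.87, SE 0.26, adjusted p = 9.80e-09). For both, all 3 MG-REP libraries were above the controls. *Lag3*, another checkpoint receptor, went down, from 887, 696 and 1199.8 TPM to 49.99, 443 and 435 TPM (log2 fold change −2.08, SE 0.48, adjusted p = 0.00212), and MG-REP library 1 was far below the other 2. The *Lag3* call was lost against the single female control (adjusted p = 0.0537) and in the fit of the 2 groups only (0.147).

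Of genes by which microglia clear apoptotic cells, 2 of 25 transcripts were higher and 6 lower (8% and 24%, against 11.9% and 14.9% of all transcripts), with a median of −0.27 near the −0.14 of all transcripts. *Mertk*, a receptor for dying cells, had 772, 535 and 789 TPM in Saline + CTRL and 249, 404 and 387 TPM in MG-REP (log2 fold change −1.02, SE 0.18, adjusted p = 0.000152), and its bridging ligand *Pros1* 335, 289 and 372 TPM and 132, 166 and 155 TPM (log2 fold change −1.13, SE 0.15, adjusted p = 3.40e-06). The integrin chain *Itgb3* had 57.4, 53.2 and 78.9 TPM and 8.15, 14.4 and 10.3 TPM (log2 fold change −2.44, SE 0.24, adjusted p = 4.84e-08). These 3 genes were lower in every MG-REP library than in every control. The scavenger receptor *Msr1* rose instead, with 7.6, 6.34 and 5 TPM and 80.7, 31.7 and 32.3 TPM for NM_031195 (log2 fold change 2.62, SE 0.42, adjusted p = 3.65e-05). Of the growth factors, 7 of 18 were higher and 3 lower, with 3 higher against the single female control: *Tgfa*, an EGF receptor ligand, had 134, 142 and 153 TPM in Saline + CTRL and 13.6, 41.9 and 47.1 TPM in MG-REP (log2 fold change −2.21, SE 0.25, adjusted p = 2.86e-07), while *Areg*, a ligand of the same receptor, had 0.24, 0.23 and 1.2 TPM and 12.98, 8.07 and 7.43 TPM (log2 fold change 2.77, SE 0.36, adjusted p = 2.32e-06). These 2 ligands of 1 receptor thus moved in opposite directions, each without overlap between the groups. A list of genes that the study followed for neurite outgrowth, chosen on these same libraries, had 1 of 9 transcripts higher and none lower. Its share of higher transcripts, 11.1%, was near the 11.9% of all transcripts. The transcript called was *Plau*, the urokinase protease, with 178, 162 and 135 TPM in Saline + CTRL and 1470.2, 769 and 488 TPM in MG-REP (log2 fold change 2.38, SE 0.26, adjusted p = 2.13e-07).

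Ribosomal protein genes had 32 of 47 transcripts higher and none lower (median 0.67). Their summed level was 9626, 10998 and 9745 TPM in Saline + CTRL and 17746, 16236 and 16904 TPM in MG-REP, without overlap. *Rplp0*, of the ribosomal stalk, had 427, 491 and 499 TPM and 1276, 1014 and 1040.5 TPM (log2 fold change 1.23, SE 0.11, adjusted p = 1.18e-08), and *Rpl32*, which shares its sequence with *Rpl32l* so that reads may be split, changed by 1.36 ± 0.13 (SE). Nuclear genes of oxidative phosphorylation had 28 of 70 higher and none lower (median 0.34). *Cox5a*, of cytochrome c oxidase, had 203, 265 and 169 TPM in Saline + CTRL and 536, 360.0 and 383 TPM in MG-REP (log2 fold change 1.00, SE 0.15, adjusted p = 2.12e-05). This count depended on the setting, with 15 against the single female control, 10 with *Xist* as a covariate, 6 in a fit of the 2 groups only 14 without Saline + CTRL library 3 and 44 with median-ratio scaling. Glycolysis had 8 of 23 higher and 2 lower (median −0.03), against 4 and 0 with the single female control, and *Gpi1*, glucose phosphate isomerase, was at 201, 227 and 165 TPM and 402, 352 and 368 TPM (log2 fold change 0.93, SE 0.12, adjusted p = 1.35e-06). Immediate early and heat shock genes, which also respond to tissue dissociation, had 8 of 33 transcripts higher and 15 lower, and summed to 46731, 45546 and 62556 TPM in Saline + CTRL and 23019, 31339 and 29572 TPM in MG-REP. *Jun* had 6146, 5255 and 8369 TPM and 1372, 2454 and 2073 TPM (log2 fold change −1.76, SE 0.26, adjusted p = 1.72e-05), whereas *Nr4a3* had 6.79, 10.1 and 4.58 TPM and 24.6, 25.1 and 16.9 TPM (log2 fold change 1.54, SE 0.29, adjusted p = 0.00024). The lower count was 5 against the single female control, 5 with *Xist* as a covariate and 10 without MG-REP library 1. The summed level of these genes moved with the fall of the homeostatic genes, and its part in that result was not tested.

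Several of the largest falls and rises concerned genes outside the lists. *Gpr165*, an orphan receptor, had 85.2, 75.5 and 119 TPM in Saline + CTRL and 0.07, 1.19 and 1.54 TPM in MG-REP, and *Upk1b*, a tetraspanin, 135, 82.7 and 123 TPM and 0.41, 2.15 and 3.25 TPM. *Myo18b*, an unconventional myosin, went from 46.6, 25.3 and 41.7 TPM to 0.2, 0.2 and 0.4 TPM. All 3 were nearly absent from MG-REP library 1, where the values were the lowest or tied for it. *Mlph*, a linker of myosin to vesicles, had 104, 50.2 and 120.1 TPM and 0.8, 4.07 and 4.7 TPM (log2 fold change −4.54, SE 0.34, adjusted p = 4.00e-10). *Tnfrsf17*, the BCMA receptor of plasma cells, had 43.2, 35.2 and 43.4 TPM and 0, 1.68 and 1.35 TPM (log2 fold change −4.49, SE 0.38, adjusted p = 2.60e-09), and *Csmd3*, a large membrane protein with complement-like domains, 29.3, 25.6 and 30.7 TPM and 0.35, 1.19 and 1.72 TPM (log2 fold change −3.88, SE 0.34, adjusted p = 5.63e-09). The protease *Adamts16*, the secreted phospholipase *Pla2g2d* and *Ccdc162* fell by 3.27, 3.15 and 3.28 on the log2 scale and *Ecscr*, a membrane protein of endothelial cells, by 3.16. In each of these transcripts all 3 MG-REP libraries lay below all 3 controls. On the side of the rises, *Sh2d1b1*, an adaptor of the SLAM receptors, had 1.87, 2.11 and 0.68 TPM in Saline + CTRL and 72.7, 52.8 and 42.4 TPM in MG-REP (log2 fold change 4.50, SE 0.37, adjusted p = 1.59e-09). *Cyp4f18*, a cytochrome P450 that inactivates leukotriene B4, had 11.5, 7.27 and 12.8 TPM and 346, 225 and 206 TPM (log2 fold change 4.49, SE 0.33, adjusted p = 2.78e-10). *Xist* and the Y-linked *Eif2s3y* were also among the 12 largest changes in each direction.

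Markers of other macrophages were measured beside these genes. A list of genes known to mark macrophages of marrow origin in the brain, of which 8 genes with 10 transcripts have a value, had all 10 higher (median 1.57). Its sum was 1362, 1139 and 1370.1 TPM in Saline + CTRL and 10504, 8585 and 8007 TPM in MG-REP, to which *Lyz2* gave the most. *Clec12a*, an inhibitory lectin of myeloid cells, had 17.1, 15.5 and 10.7 TPM in Saline + CTRL and 152, 122 and 85.3 TPM in MG-REP (log2 fold change 2.95, SE 0.36, adjusted p = 8.50e-07). *Ms4a7*, *Klra2* and *Axl* of this list have no value in the table, and *Lyz2* and *Apoe* stand in the list of disease-associated genes too. Border macrophage markers split: *Siglec1*, a sialic acid-binding receptor, had 25.5, 14.3 and 14.4 TPM and 205, 174 and 193 TPM (log2 fold change 3.37, SE 0.27, adjusted p = 1.20e-09) and the platelet factor *Pf4* 156, 133 and 122 TPM and 901, 422 and 408 TPM (log2 fold change 1.97, SE 0.34, adjusted p = 0.0001). The lectins *Cd209f* and *Cd209g* fell, from 27.6, 28.3 and 20.6 TPM to 0.43, 0.25 and 0.74 TPM and from 12.3, 7.35 and 4.93 TPM to 0.22, 0.25 and 0 TPM. The groups did not overlap for these 4 genes. *Mrc1*, *Lyve1* and *Cbr2*, which define this cell type, changed by −0.09, −0.49 and −0.01 and were not called. Monocyte markers had 3 of 11 higher and 1 lower, with *Itga4*, an integrin of recruited leukocytes, at 10.9, 10.04 and 9.59 TPM and 79.5, 58.1 and 60.6 TPM (log2 fold change 2.57, SE 0.21, adjusted p = 1.96e-09). *Ly6c2* had 7.06, 12.02 and 6.67 TPM and 0.3, 42.8 and 3.42 TPM, high in MG-REP library 2 as the neutrophil markers were, and was not called (log2 fold change −0.56, SE 0.79, adjusted p = 0.661). T and NK cell markers had 5 of 9 lower and none higher, all at most 14.4 TPM, and B cell markers 2 of 3 lower. Dendritic cell markers had 2 of 9 lower (22.2%, against 14.9% of all transcripts). The part of these cell types in the results was not tested.

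The same contrast in MIA offspring was smaller. In MIA + MG-REP against MIA + CTRL, 79 of 14225 transcripts (0.555%) were called, and the difference between the 2 contrasts, tested in the same fit, was called for 1496 (10.5%). This count was 963 without Saline + MG-REP library 1 and 814 with the single female Saline control. In 1495 of the 1496 the difference had the sign opposite to the change in Saline offspring, and the exception was *Lrrc3*, a membrane protein with leucine-rich repeats, which changed by 0.13 in Saline and 0.89 in MIA offspring. The difference is formed by subtracting the Saline change, so an opposite sign is largely built in and is no separate result. The sexes were laid out alike in both arms, since MIA + CTRL libraries 2 and 3 were male and MIA + CTRL library 1 and the 3 MIA + MG-REP libraries female by *Xist* and Y-linked genes. Of the transcripts of mitosis, 46 of 52 differed, with medians of 3.06 in Saline and −0.02 in MIA offspring. For DNA replication it was 29 of 43 (1.29 and −0.05), and for the homeostatic list 11 of 18 (−1.14 and −0.05). The interferon list had 15 of 50, with medians of 1.39 and 0.47. MHC class I had medians of 0.48 and 0.41, and 1 of 18 transcripts differed.

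*Mki67* had 3.43, 2.45 and 2.67 TPM in MIA + CTRL and 2.5, 3.16 and 2.65 TPM in MIA + MG-REP. The difference between its contrasts in MIA and Saline offspring was −4.89 (SE 0.34, adjusted p = 3.06e-09). *P2ry12* had 2847, 4017 and 3933 TPM and 2903, 3404 and 3019 TPM in the MIA groups, with a difference between the contrasts of 2.08 (SE 0.33, adjusted p = 0.000154). For *Sall1* the MIA groups had 503, 569 and 629 TPM and 542, 600.4 and 538 TPM, and the difference was 2.47 (SE 0.42, adjusted p = 0.000262). For these 3 genes the MIA groups overlapped, while the Saline groups did not. Other genes rose in both. *Tnfsf8* had 2.66, 1.12 and 1.99 TPM in MIA + CTRL and 32.9, 30.9 and 28.3 TPM in MIA + MG-REP, and the difference was −0.73 (SE 0.32, adjusted p = 0.167). *Pdcd1* had 3.07, 2.59 and 3.75 TPM and 29.9, 33.6 and 24 TPM there, with a difference of −0.01 (SE 0.37, adjusted p = 0.995). *Cdkn2a* (NM_001040654), listed at 0 in resident cells of Saline offspring, had 0, 0.65 and 0 TPM in MIA + CTRL and 8.02, 7.78 and 4 TPM in MIA + MG-REP. The other *Cdkn2a* transcript, NM_009877, had 0.35, 0 and 0 TPM and 3.39, 0.53 and 1.31 TPM there, with a difference of −2.19 (SE 0.53, adjusted p = 0.00825). *C3* changed by 1.68 in MIA offspring, against 2.02 in Saline offspring, with a difference of −0.34 (SE 0.49, adjusted p = 0.803). A difference that was not called does not show that the 2 contrasts were equal.

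**Figure D5:**
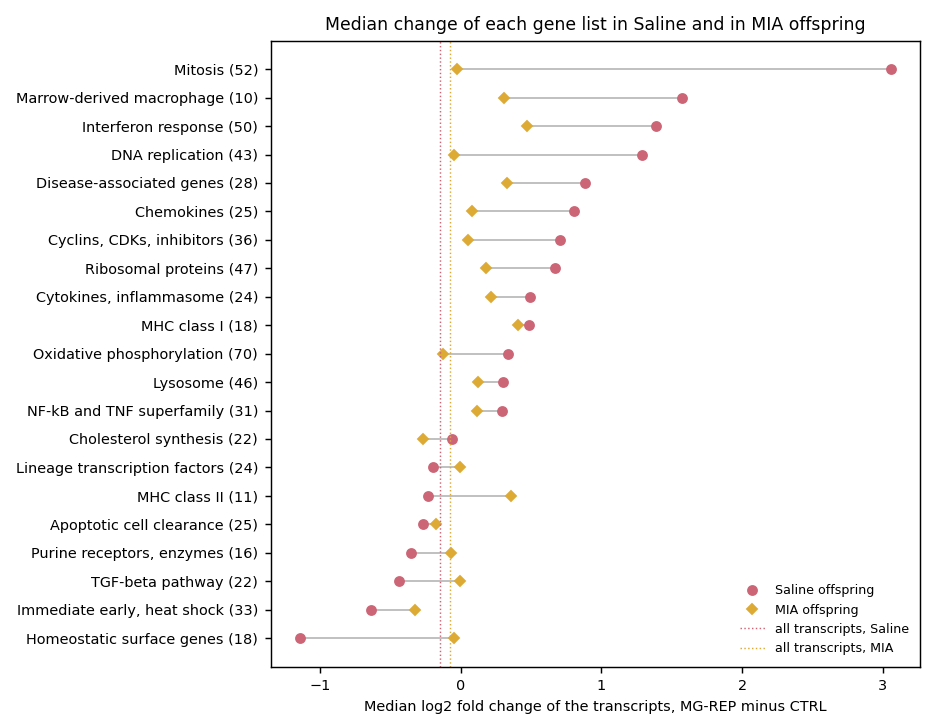
Median log2 fold change between MG-REP and CTRL of 21 gene lists in Saline (circles) and in MIA offspring (diamonds), with the number of transcripts of each list in brackets; dotted lines mark the medians of all transcripts. The mitosis list lies at 3.06 in Saline and −0.02 in MIA offspring, and the homeostatic list at −1.14 and −0.05.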

How the data were processed

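RNA of CD11B bead-isolated cells was sequenced by the authors from poly(A) libraries without strand, aligned to mm10 and counted per transcript with featureCounts. The authors kept transcripts with at least 2 CPM in at least 3 of 30 libraries and deposited TPM values, whose formula is not given in the sources used here. The table also names the authors' module of each transcript.

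TPM were analysed as log2(TPM + 1) without further filter by limma 3.58.1 (R 4.3.3), with all 30 libraries in one fit, an intensity trend and Benjamini-Hochberg adjustment over 14225 transcripts. A call is an adjusted p under 0.05. A fold change on this scale understates that of low transcripts. Single sums and shares were compared by the two-sided exact permutation test (Python 3.11.15). Reads per library were estimated from steps of low values, and 76.2% to 79.8% of those values fell at most 0.2 from a whole number of reads. Chance gives 40% for a step set beforehand. The step was chosen to bring this share near its largest value, so the gap is no test of it. Each group is 3 animals, and the labels give no sex, litter or batch.

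Promoter sequence came from RefSeq windows (GRCm38.p6). The alternatives were another pseudocount, a filter on mean TPM, other scalings, the replicate block, sex, the samples in the fit and leaving out each library.

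Members and lists were chosen with earlier results of these data known. Named genes were the 12 largest rises and falls without overlap, the 6 largest gains and losses of TPM, up to 6 called members of each list and the defining microglial genes, of which some are not reported here. Others, such as *Aif1*, *C2*, *Ccl2*, *Ccl3*, *Ccl4*, *Ccl6*, *Ctsl*, *Il16*, *Il27*, *H2-Aa*, *H2-K1*, *Cdkn1a*, *Ly6c2* and *Lrrc3*, were chosen after their values were seen.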

Additional observations from a re-analysis of the deposited data

Results flagged for a closer look

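The change from resident to repopulated microglia was tested for a difference between MIA and Saline offspring, as an interaction term of the same limma fit, and each gene below passed at an adjusted p under 0.05. Each value is the log2 fold change in MIA offspring minus that in Saline offspring, with 3 libraries a group. A negative value stands for a gene whose change was more positive in Saline offspring.

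Among genes of cell division, negative differences were those of *Ube2c* −5.26, *Mki67* −4.89, *Ccnb2* −4.79, *Cdca8* −4.65, *Top2a* −4.42, *Rrm2* −4.29, *E2f8* −3.89, *Cdkn2c* (NM_001301368) −3.32, *Foxm1* −2.84, *Ccne1* −2.63, *Mcm2* −2.38 and *Cdkn2a* (NM_009877) −2.19. *Cdkn1a* (NM_007669) −2.07 and *Cdkn1a* (NM_001111099) −1.0 were further negative differences.

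Among genes of homeostasis, lineage, TGF-beta, CSF and purine signalling, negative differences were those of *Nt5e* −3.20 and *Csf2ra* −0.86. *Smad3* 0.60, *Smad7* 0.94, *Tmem119* 1.20, *Cx3cr1* 1.29, *Egr1* 1.39, *Gpr34* 1.57, *Adora3* 1.71, *Cst3* 1.80, *P2ry13* 1.83, *P2ry12* 2.08, *Slc2a5* 2.14 and *Sall1* 2.47 were positive differences.

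Among genes of interferon response and antigen presentation, negative differences were those of *Cxcl10* −3.12, *Ifi27l2a* −2.90, *Ms4a4c* −2.22, *Zbp1* (NM_021394) −2.21, *Oas3* −2.15, *Ifi204* −1.85, *Bst2* −1.66 and *Oas1a* −1.29. *H2-Ob* 1.51 and *H2-Oa* 1.97 were positive differences.

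Among genes of cytokines, chemokines, their receptors, NF-kB, Toll-like receptors and complement, negative differences were those of *Il12b* −5.85, *Cxcl1* −4.50, *Cxcl2* −3.36, *Cxcr4* −3.17, *Il23a* −3.01, *Ccr1* −2.79, *Pf4* −2.62, *Cfp* −2.59, *Tnfsf9* −2.29, *Il10* −1.92, *Tlr2* −1.73 and *Cxcl16* −1.51. *Ccl6* 1.03, *Il16* 1.10, *C2* 1.16, *Il6st* 1.34, *Ccl24* 1.62, *Il27* 2.07 and *Tlr5* 2.20 were positive differences.

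Among genes of disease association, lysosomes, lipids and redox, negative differences were those of *Cybb* −3.35, *Ch25h* −3.31, *Ctse* −2.35, *Apoe* (NM_001305844) −2.27, *Lyz2* −2.19, *Apoe* (NM_001305843) −1.88, *Plin2* −1.83, *Cd52* −1.73, *Apoe* (NM_001305819) −1.65, *Cst7* −1.61, *Ctsc* (NM_001311790) −1.39 and *Gusb* −1.20. *Ctsc* (NM_009982) −1.15 was a negative difference. *Ctsl* 1.10 and *Slc40a1* 1.55 were positive differences.

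Among genes of checkpoints, cell clearance, growth factors and protrusion, negative differences were those of *Cd69* −3.36, *Areg* −3.26, *Msr1* (NM_031195) −3.02, *Clec12a* −2.37, *Siglec1* −2.21, *Msr1* (NM_001113326) −2.10 and *Plau* −1.62. *Mertk* 1.04, *Pros1* 1.23, *Itgb3* 1.96, *Tgfa* 2.05 and *Lag3* 2.71 were positive differences.

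Among genes of ribosomes, metabolism and immediate early response, negative differences were those of *Nr4a3* −1.81, *Cox5a* −1.15, *Rplp0* −1.04, *Rpl32l* −0.97, *Rpl32* −0.95 and *Gpi1* −0.92. *Jun* 1.39 was a positive difference.

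Among markers of other cells, negative differences were those of *Itga4* −2.41. *Acta2* 1.53, *Cd209g* 2.05 and *Cd209f* 3.30 were positive differences.

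Among genes outside these groups, negative differences were those of *Cdkn3* −4.71, *2810417H13Rik* −4.53, *Runx3* −3.77, *Cyp4f18* −3.48, *Sh2d1b1* −2.08 and *Tmsb4x* −1.21. *Lrrc3* 0.77, *Myo18b* 1.42, *Pla2g2d* 1.57, *Rhob* 1.69, *Tnfrsf17* 2.46, *Adamts16* 2.48, *Gpr165* 2.60, *Csmd3* 2.61, *Ecscr* 2.66, *Mlph* 3.70 and *Upk1b* 3.99 were positive differences.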

How the results depend on the processing

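Of the 14225 transcripts, 3805 were called between Saline + MG-REP and Saline + CTRL. The count was 2012 when Saline + CTRL library 1 was the only control (1942 shared), 1911 in a fit of the groups compared alone (1864 shared), and 2460 to 3729 when 1 library was left out, the lowest without Saline + MG-REP library 1. The other settings gave 3063 with *Xist* as a covariate to 3980 with the replicate block. The difference between MIA and Saline offspring was called for 1496 transcripts, for 814 with that single Saline control, and for 963 (without Saline + MG-REP library 1) to 1631 when 1 library was left out. Same-numbered deviations from the group means correlated at −0.063, 0.197 and −0.525, and differently numbered ones at −0.474 to 0.510. With 3 libraries a group, these values cannot decide whether the replicate numbers paired the samples. The replicate block called 3980 transcripts, 3614 of them shared, and changed no call among 210 named transcripts, and 1495 differed between the arms.

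Sign changes were found for Y-linked genes and for uncalled lineage factors. With *Xist* as a covariate *Eif2s3y* had a log2 fold change of 0.37, *Ddx3y* 0.48, *Kdm5d* 0.40 and *Uty* 0.40, and *Uty* had 0.048 with the single female control. *Spi1* had −0.015 with quantile normalization, −0.037 without Saline + CTRL library 2 and −0.049 without Saline + MG-REP library 1, and reached 0.17 without Saline + MG-REP library 3. *Irf8* (NM_008320) had −0.16 with the single female control, and *Irf8* (NM_001301811) had 0.031 with median-ratio scaling, 0.12 with quantile normalization, 0.068 without Saline + CTRL library 2 and 0.048 without Saline + MG-REP library 3, with 1-library omissions reaching from −0.14 to 0.068. The cause was not tested. Of the 210 named transcripts, 166 kept direction and call with the single female control and 184 to 203 with 1 library left out.

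Transcripts under about 1 TPM rest on few reads, and sex, litter and batch are not in the labels.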
